A study of Penicillium oxalicum with 15 samples.

Results

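The comparison described here sets the Penicillium oxalicum strain MuPOX03016 against the strain MuKu70, each grown on the carbon source WR under solid-state fermentation, with 3 RNA sequencing libraries of mycelium per strain. These are 6 of the 15 libraries of the series. The response of a further strain, EU2101, to WR against the carbon source WB is read beside them in the last paragraphs. That fit also holds the EU2101 libraries labelled WB_AV. Cultures stood without shaking for 5 days at 28 °C on 10 g of carbon source wetted with 20 mL of mineral salt solution. POX03016 is a gene identifier of this fungus, and MuPOX03016 is the strain labelled as its mutant. The labels give no account of how either strain was made, whether MuKu70 is the parent of MuPOX03016, whether a strain is 1 clone, or whether the replicates are separate cultures. The p-values below therefore measure only the spread among these samples, and that spread may be technical. The genes described are those whose deposited estimated count lay within 0.01 of a whole number in all 6 libraries, a gene not listed in a library counting as 0. A count with a fraction marks reads divided between genes. Of 9127 genes listed in at least 1 of the 6 libraries, 7720 (84.6%) met this rule, out of 9512 genes listed anywhere in the series.

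P. oxalicum is a filamentous ascomycete that feeds on plant litter by secreting cellulases and hemicellulases, the enzymes that cut the cellulose and xylan of plant cell walls into sugars. In such fungi these enzymes are made when plant polysaccharides are at hand and are held back by easily used sugars, and transcription factors set that balance. The design text of the series names a search for such transcription factors. Ku70 helps to rejoin broken DNA ends. Fungi that lack it are often used to delete genes, since incoming DNA then integrates less often at random sites. The deposited files give no gene names. None of the 9512 identifiers matched the 9964 genes of the RefSeq table for strain HP7-1 (assembly ASM172317v3), so genes are given by identifier without a function. For the same reason the label mycelium could not be checked against marker genes.

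The estimated counts summed to between 6609605 and 7138801 per MuPOX03016 library and between 6753528 and 7335888 per MuKu70 library. Of the 7720 whole-count genes, 6640 had enough counts to be tested. The 1080 that did not had a median of 10 counts over the 6 libraries together. The tested genes held 76.5 to 78.4% of all counts in the MuPOX03016 libraries and 77.3 to 78.2% in the MuKu70 libraries. In bulk RNA of this kind, fewer cells that use a gene and less of its RNA per cell cannot be told apart. Levels are in FPKM, fragments scaled to the length of the gene and the size of the library, as the authors computed them, and fold changes come from the counts.

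POX03016 itself was lower in the strain that carries its name. It stood at 18.47, 19.93 and 17.90 FPKM in the 3 MuPOX03016 libraries, against 87.37, 138.97 and 88.88 FPKM in the 3 MuKu70 libraries. The groups did not overlap, and the MuPOX03016 libraries lay close together while replicate 2 of MuKu70 stood above the other two. The log2 fold change was -2.33 (SE 0.19, adjusted p = 0.0012, edgeR's quasi-likelihood test with Benjamini-Hochberg adjustment, used for every adjusted p below unless another tool is named). The exact permutation test on counts scaled to library size, 2-sided, had p = 0.1, which is the smallest that 3 against 3 libraries allow. The mutant libraries still held 275, 319 and 288 reads of the gene, which these files do not place within it. Among the 482 whole-count genes that fell, 44 fell further than POX03016, which ranked 45.

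**Figure D1:**
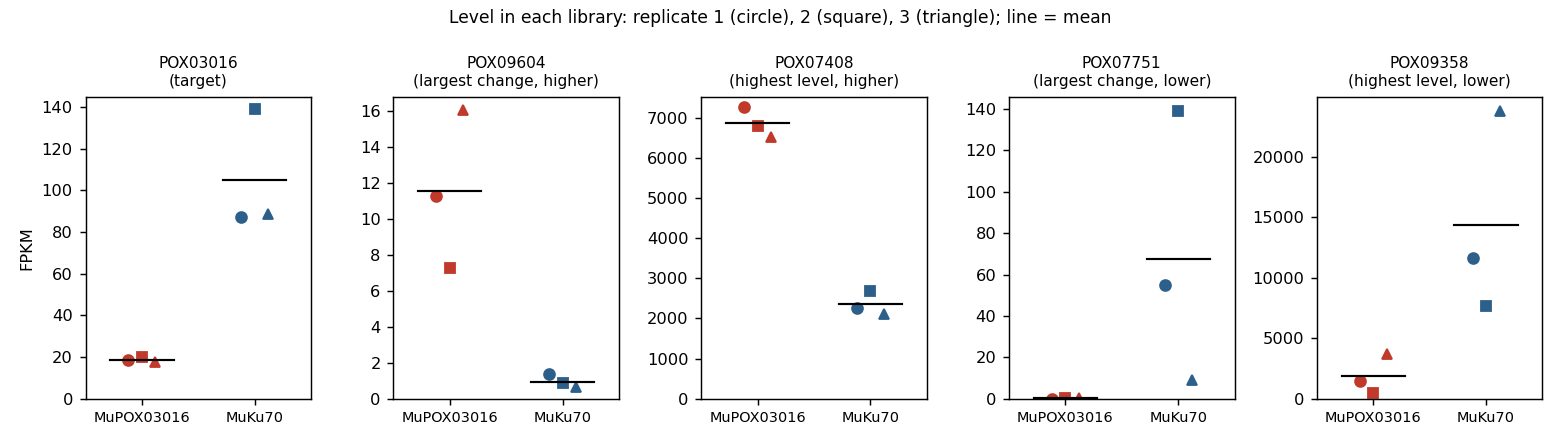
FPKM of POX03016 and of the 4 genes named by size of change and by level, in each of 3 MuPOX03016 libraries (red) and 3 MuKu70 libraries (blue); the line is the mean and each panel has its own axis from 0. In each panel the strains do not overlap. Judged by the height of each panel's axis, the spread among replicates is widest for POX07751 and POX09358 in MuKu70. POX09358 also spread in MuPOX03016, from 492.26 to 3731.02 FPKM.

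Across the tested whole-count genes, 1177 of 6640 (17.7%) differed between the strains at an adjusted p of at most 0.05, against 18.4% of all 7931 genes tested. With TMM scaling of all 6 libraries more genes rose than fell, and with scaling by library totals more fell than rose. In MuPOX03016, under TMM, 695 genes were higher and 482 were lower, 10.5% and 7.3% of the tested genes, against 10.8% and 7.55% of all genes tested. Of the 1291 tested genes with fractional counts, 279 (21.6%) differed. The balance between rises and falls depended on how the libraries were scaled. TMM scaling centred the fold changes at a median of -0.01 over the tested whole-count genes, whereas scaling by library totals put the median of all tested genes at -0.14 and called 456 genes higher and 957 lower, so that 32.3% of the calls were higher instead of 59.0%. The directions below are relative to the TMM centre. Without MuKu70 replicate 1 the number of genes called under TMM was 429, with 213 higher and 216 lower, so that the excess of rises was gone. Without MuPOX03016 replicate 3 the number called was 659, and with any other library left out it lay between 816 and 1012.

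The genes that rose made up a larger part of the RNA than those that fell. The 695 genes that rose took 15.7, 15 and 14% of all counts in the MuPOX03016 libraries, against 8.3, 8.9 and 7.7% in the MuKu70 libraries. The 482 genes that fell took 3.0, 3.1 and 3.1% in MuPOX03016, against 7.3, 7.3 and 7.5% in MuKu70. These shares describe genes chosen in the same libraries and were not tested.

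By level, rises were a larger share of the abundant genes than of the scarce ones. With genes classed by mean FPKM over the 6 libraries, 60 of 941 genes (6.38%) between 1 and 10 FPKM rose, 425 of 4370 (9.73%) between 10 and 100 FPKM, 189 of 1175 (16.1%) between 100 and 1000 FPKM, and 18 of 121 (14.9%) at 1000 FPKM and over. Falls took 8.4%, 7.09%, 7.06% and 4.13% of the same 4 classes, that is 79, 310, 83 and 5 genes. Under 1 FPKM only 33 of 741 whole-count genes were tested, of which 3 rose and 5 fell. The classes were not tested against each other, and precision differed between them: the median standard error of a log2 fold change was 0.27 between 1 and 10 FPKM and 0.12 between 100 and 1000 FPKM. Scaling by library totals gave rises in 5.1%, 6.04%, 10.9% and 11.6% of the 4 classes from 1 FPKM upward. DESeq2, run with no count filter, called 64, 463, 233 and 31 genes higher in them. These were 4.91%, 10.6%, 19.8% and 25.6% of all whole-count genes listed in each class, tested or not. Between 1 and 10 FPKM that base was 1304 genes instead of 941. The largest share with DESeq2 was at 1000 FPKM and over. The same classes had 12.4%, 15.1%, 14.1% and 6.61% of genes lower under library totals. Calls in the 4 classes numbered 139, 735, 272 and 23; without MuKu70 replicate 1 they were 50, 250, 119 and 8, and without MuPOX03016 replicate 3 they were 64, 394, 181 and 17. Between 1 and 10 FPKM there were 71 calls without MuPOX03016 replicate 1 and 76 without MuKu70 replicate 2, and at 1000 FPKM and over 15 without MuPOX03016 replicate 1.

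**Figure D2:**
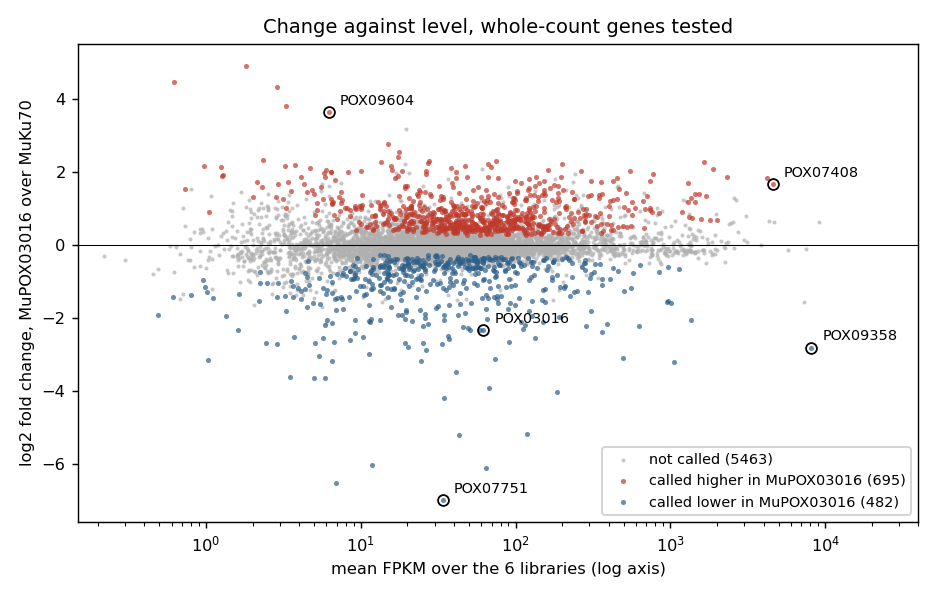
Log2 fold change of MuPOX03016 over MuKu70 against the mean FPKM over the 6 libraries (log axis) for the 6640 tested whole-count genes, with 695 called higher (red), 482 called lower (blue) and 5463 not called (grey). POX03016 and the 4 genes named by size of change and by level are circled; the falls reach further from 0 than the rises.

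The most abundant gene that rose was POX07408. It stood at 7262.71, 6778.91 and 6527.08 FPKM in MuPOX03016, against 2261.86, 2672.26 and 2114.48 FPKM in MuKu70. Replicates of each strain lay close together and far from the other strain. The gene was 3.18-fold higher (log2 fold change 1.67, SE 0.16, adjusted p = 0.00169), and it ranked 4 among all genes by mean FPKM in MuPOX03016 and 24 in MuKu70. The other 17 rises at 1000 FPKM and over had log2 fold changes of 0.67 to 2.27. The steepest of them, chosen after its values were seen, was POX09734, at 2623.34, 2558.89 and 2821.80 FPKM in MuPOX03016, against 547.24, 554.91 and 719.09 FPKM in MuKu70 (4.83-fold higher, adjusted p = 0.000981). Both genes passed in each alternative tried. Other rises at this level were less steady: POX01180, POX01799, POX02231 and POX06783 each lost the call in 9 of the 17 alternatives, POX09137 in 7 and POX04786 in 6. Counted among the 17, here and below, are the wider whole-number tolerance of 0.05 and the inclusion of fractional genes. Both change only which genes are described, so a single gene kept its main result in them by design.

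Of the 5 genes at 1000 FPKM and over that fell, POX09358 was the most abundant and the most variable. It stood at 1486.07, 492.26 and 3731.02 FPKM in MuPOX03016, against 11618.33, 7700.42 and 23820.44 FPKM in MuKu70, where it ranked first of all genes by mean FPKM; in MuPOX03016 it ranked 45. The strains did not overlap, and in each strain replicate 3 was highest and replicate 2 lowest. The log2 fold change was -2.82 (SE 0.75, adjusted p = 0.0404), and the call was lost without MuPOX03016 replicate 1, MuKu70 replicate 1 or MuKu70 replicate 3 (adjusted p = 0.121, 0.101 and 0.0935).

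The remaining 4 of these 5 genes are named because they are so few. POX09365 stood at 456.54, 195.95 and 824.57 FPKM in MuPOX03016, against 2001.29, 1630.85 and 3060.16 FPKM in MuKu70, with the same order of replicates as POX09358. Its log2 fold change was -2.06 (SE 0.50, adjusted p = 0.0311), and the call was lost without MuPOX03016 replicate 1, MuKu70 replicate 1 or MuKu70 replicate 3. POX00499 stood at 196.37, 222.91 and 145.73 FPKM in MuPOX03016, against 1303.93, 3044.41 and 1447.23 FPKM in MuKu70 (log2 fold change -3.22, SE 0.36, adjusted p = 0.00251). POX02284 stood at 488.10, 524.48 and 456.10 FPKM in MuPOX03016, against 1744.05, 1356.86 and 1490.89 FPKM in MuKu70. Its log2 fold change was -1.58 (SE 0.18, adjusted p = 0.00242), and unlike POX09365 it varied little among replicates. POX08027 fell by 0.66 on the log2 scale (adjusted p = 0.0176), with means of 838.5 ± 64.5 FPKM in MuPOX03016 and 1450.4 ± 132.9 FPKM in MuKu70 (SD, n = 3 each). That call was lost without MuPOX03016 replicate 3 or MuKu70 replicate 1 (adjusted p = 0.073 and 0.0825).

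By size of change, moderate differences made up most of the calls, and under TMM scaling rises were the more numerous among small changes and falls among large ones; under library totals falls outnumbered rises at 2-fold or more too, with 174 rises and 266 falls. Of the rises, 223 were under 1.5-fold, 239 between 1.5-fold and 2-fold, 197 between 2-fold and 4-fold, 31 between 4-fold and 8-fold and 5 of 8-fold or more. Of the falls, 143, 136, 133, 50 and 20 genes lay in the same classes. At 2-fold or more, 233 genes rose and 203 fell, against 3.58% and 3.19% of all genes tested. At 4-fold or more, 36 rose and 70 fell, against 0.656% and 1.13% of all genes tested, and at 8-fold or more the shares of all genes tested were 0.151% and 0.441%. A further 132 genes differed by 2-fold or more without passing the test, 85 of them higher and 47 lower in MuPOX03016; their median standard error was 0.48 on the log2 scale, against 0.24 for the genes that passed at 2-fold or more. Without MuKu70 replicate 1, 116 genes rose and 149 fell by 2-fold or more, and 15 rose by 4-fold or more. Without MuPOX03016 replicate 1, 167 rose and 179 fell by 2-fold or more. Scaling by library totals gave 22 rises and 80 falls of 4-fold or more. The stricter filter on low counts (a mean of at least 50) left 19 such rises and 53 falls, limma on log2(FPKM + 1) 15 and 67, and limma on log2(FPKM + 5) 1 and 38.

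**Figure D3:**
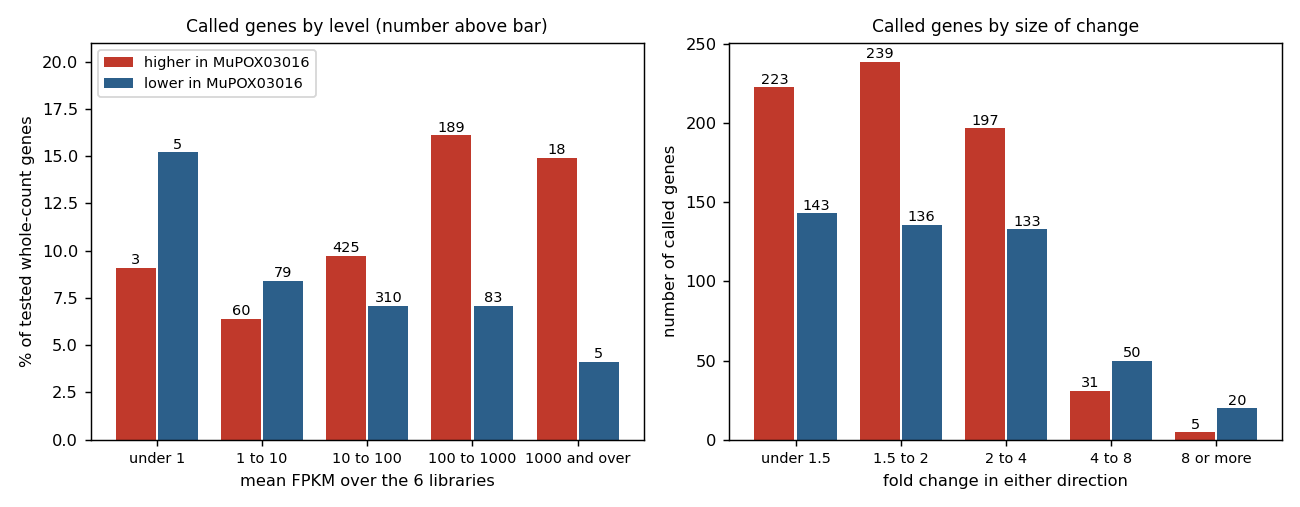
Left, the share of tested whole-count genes called higher (red) or lower (blue) in MuPOX03016 in 5 classes of mean FPKM, with the number of genes above each bar. Right, the number of called genes by size of change; under TMM scaling rises outnumber falls up to 4-fold, and falls outnumber rises beyond it, while under library totals falls outnumber rises at 2-fold or more.

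The largest rises were of scarce genes. All 5 rises of 8-fold or more had a mean under 10 FPKM over the 6 libraries, and their identifiers all lay between POX09598 and POX09713. Each of the 5 reached the count minimum in MuPOX03016 alone, so that it had to differ in order to be tested; their values are given as a description, without p-values. Of these, POX09604 alone reached a mean of 10 FPKM in MuPOX03016. It stood at 11.25, 7.28 and 16.01 FPKM there, against 1.35, 0.86 and 0.63 FPKM in MuKu70, from 35, 25 and 53 counts against 5, 3 and 2 counts. The groups did not overlap, and the fitted difference was 12.4-fold (log2 fold change 3.63, SE 0.44). The other 4, named for being so few, were POX09598, POX09606, POX09623 and POX09713. POX09606 averaged 6.15 ± 3.4 FPKM in MuPOX03016 and 0.467 ± 0.210 FPKM in MuKu70 (SD, n = 3 each). POX09623 had 20, 20 and 51 counts in MuPOX03016 and 0, 0 and 3 counts in MuKu70, a ratio of 31.1 per library total with 10.3 to 153.8 as its exact 95% Poisson interval. For POX09598 and POX09713 the ratios were 22.2 (7.28 to 110.7) and 21.6 (5.61 to 183.9), each from 3 or fewer counts in MuKu70. Such intervals cover counting error only.

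The largest falls reached into better measured genes. The 20 falls of 8-fold or more had a median level of 34.4 FPKM, and 4 of them averaged 100 FPKM or more. The largest fall of a gene at 10 FPKM or more was that of POX07751, at 0, 0.60 and 0.63 FPKM in MuPOX03016, against 54.91, 139.07 and 9.19 FPKM in MuKu70. These were 0, 1 and 1 counts against 104, 231 and 14 counts, so that the MuKu70 libraries spread widely while the MuPOX03016 libraries were near 0. The ratio per library total was 0.00588, with 0.00071 to 0.0214 as its exact 95% Poisson interval. This gene reached the count minimum in MuKu70 alone and is likewise described without a p-value. Of the tested whole-count genes, 46 reached the count minimum in 1 strain alone, and 34 of these were called; these include 11 of the 36 rises and 12 of the 70 falls of 4-fold or more, and 5 of 5 rises and 6 of 20 falls of 8-fold or more.

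A list of 13 identifiers, recalled from quantitative PCR panels for cellulase and xylanase genes in P. oxalicum, was read as a group; the function of its members could not be checked here. Of these, 11 had whole counts. POX06835 and POX08484 did not, and lay outside the range of the 11. Their log2 fold changes, from counts that include shared reads, were 0.04 (adjusted p = 0.917) and 2.17 (adjusted p = 0.00385). In MuPOX03016, 8 of the 11 rose and none fell, against 10.8% and 7.55% of all genes tested. The median log2 fold change of the 11 was 1.21, or 2.32-fold, against -0.01 over the tested whole-count genes, and single members ranged from 0.93 to 1.40. The FPKM values of the strains did not overlap for 8 of the 11, all of them higher in MuPOX03016, where 13% of all genes tested were separated upward and 31.2% downward on this scale, which is not centred by TMM.

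POX01166 stood at 2153.60, 2465.02 and 1515.42 FPKM in MuPOX03016, against 925.01, 944.69 and 693.08 FPKM in MuKu70, 2.63-fold higher (log2 fold change 1.40, SE 0.23, adjusted p = 0.00791). POX05570 stood at 1984.78, 2236.87 and 1584.27 FPKM in MuPOX03016, against 1016.62, 1049.34 and 761.80 FPKM in MuKu70, 2.24-fold higher (log2 fold change 1.16, SE 0.19, adjusted p = 0.00847). In these members all mutant libraries lay above all MuKu70 libraries, and each passed in every alternative tried. POX07535 averaged 2175.0 ± 513.7 FPKM in MuPOX03016 and 903.9 ± 268.6 FPKM in MuKu70 (SD, n = 3 each; adjusted p = 0.0175), and POX01896 averaged 599.0 ± 154.3 FPKM in MuPOX03016 and 256.2 ± 48.6 FPKM in MuKu70 (adjusted p = 0.011). The other 4 that passed were POX06147, POX04786, POX06783 and POX05571, with log2 fold changes of 1.38, 1.27, 1.17 and 0.99 and adjusted p of 0.0208, 0.0262, 0.0458 and 0.0392. Of 17 alternatives, POX06783 and POX05571 lost the call in 9 each, scaling by library totals among them (adjusted p = 0.0573 and 0.0556), POX04786 in 6, POX06147 in 4, POX07535 in 2 and POX01896 in 1.

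POX00063, POX02740 and POX05587 did not pass in the fit used here. With the replicate number as a block in the fit they did (adjusted p = 0.00247, 0.00106 and 0.0134), though no label ties the numbers. POX00063 stood at 1451.44, 2786.21 and 864.79 FPKM in MuPOX03016, against 741.99, 1248.38 and 436.14 FPKM in MuKu70 (log2 fold change 1.21, SE 0.50, adjusted p = 0.139). The strains overlapped, and within each strain replicate 2 was highest and replicate 3 lowest. POX05587 lay just past the threshold, with 803.0 ± 256.6 FPKM in MuPOX03016 and 465.0 ± 69.1 FPKM in MuKu70 (SD, n = 3 each; log2 fold change 0.93, adjusted p = 0.0503), and POX02740 had a log2 fold change of 1.07 (adjusted p = 0.119). Replicate 3 was the lowest of its strain for 10 of the 11 members in MuPOX03016 and for 10 of 11 in MuKu70. Together the 11 took 1.92, 2.04 and 1.21% of the FPKM sum in MuPOX03016, against 0.87, 0.94 and 0.59% in MuKu70. The members called fell to 2 without MuKu70 replicate 1, 3 without MuPOX03016 replicate 1, 4 without MuKu70 replicate 3 and 5 without MuKu70 replicate 2. In limma on log2(FPKM + 1) with no filter on low values, 4 were called.

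**Figure D4:**
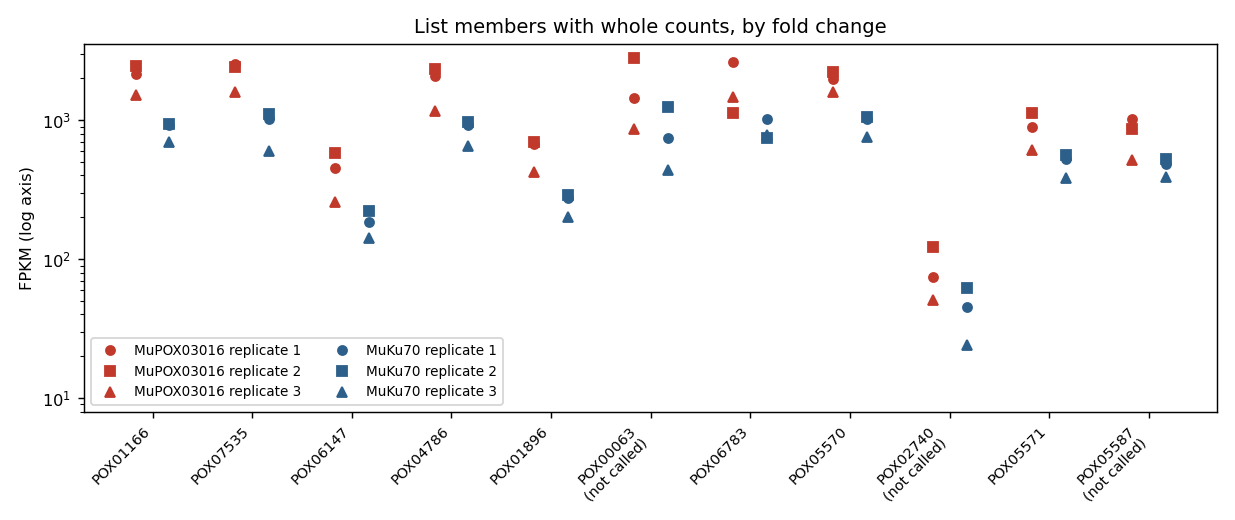
FPKM (log axis) of the 11 list members with whole counts, in order of fold change, in the MuPOX03016 (red) and MuKu70 (blue) libraries, with replicate 1 as a circle, 2 as a square and 3 as a triangle. Replicate 3 is the lowest of its strain for 10 of 11 members in either strain. The MuPOX03016 points sit above the MuKu70 points of the same replicate number throughout, though no label ties the numbers. The strains overlap for POX00063, POX02740 and POX05587.

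Some of the called genes stood side by side in identifier number. Of the 1407 genes with fractional counts, 1310 (93.1%) had another such gene at the number before or after, against 13.6% of the whole-count genes, so genes that share reads tend to have adjacent numbers. The files give no positions, and a place in the genome is not claimed here. Runs of 3 or more consecutive numbers, all called in 1 direction, numbered 31 and held 114 genes; 18 runs rose and 13 fell. The identifiers of the runs below were chosen after their values were seen. The 3 longest runs fell: POX09467 to POX09474 with 8 genes, and POX09335 to POX09340 and POX09356 to POX09361 with 6 genes each. Next came POX03927 to POX03931 and POX06599 to POX06603, with 5 genes each, which rose by log2 fold changes of 0.92 to 1.32 and 1.18 to 2.22. Without MuKu70 replicate 1 only 2 of the 5 genes of POX03927 to POX03931 and 1 of the 5 of POX06599 to POX06603 were called, and with another library left out the numbers called were 3 to 5 in each run. Scaling by library totals gave 45 runs and DESeq2 gave 39. Without MuKu70 replicate 1 there were 8 runs, without MuPOX03016 replicate 1 there were 17, without MuKu70 replicate 3 there were 19 and without MuPOX03016 replicate 3 there were 20.

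The run POX09356 to POX09361 holds POX09358, the gene with the highest mean FPKM in MuKu70. Its steepest member was POX09357, at 5.59, 4.24 and 7.5 FPKM in MuPOX03016, against 217.67, 215.91 and 262.20 FPKM in MuKu70 (log2 fold change -5.19, SE 0.22, adjusted p = 7.58e-05). Replicates of this gene varied little in either strain. A short way on in number, POX09364 stood at 2.0, 1.94 and 2.18 FPKM in MuPOX03016, against 78.64, 80.96 and 92.14 FPKM in MuKu70 (log2 fold change -5.22, SE 0.12, adjusted p = 5.12e-06). Each of these 2 genes passed with any library left out, unlike POX09358. Over the run, log2 fold changes lay between -5.19 and -0.99. In POX09335 to POX09340 they lay between -3.12 and -1.44, with mean levels of 1.07 to 50.8 FPKM in MuPOX03016 and 9.73 to 195.0 FPKM in MuKu70.

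Identifier numbers from 9000 upward held a larger share of the large changes than of the genes tested. Of the 517 tested genes from 9000 to 9829, 71 rose and 54 fell (24.2%), against 1052 of 6123 (17.2%) among lower numbers, where the 9 classes of 1000 numbers ranged from 13.8 to 20.2%. They included 21 of the 36 rises and 19 of the 70 falls of 4-fold or more. Over all numbers, 11 of these 36 rises and 12 of these 70 falls reached the count minimum in 1 strain alone. Such genes had to differ in order to be tested. The 5 rises of 8-fold or more are all of this kind and all lie in this class. These shares were not tested. Without MuKu70 replicate 1, 66 genes of this class were called, and without MuPOX03016 replicate 3, 80.

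The response of EU2101, another strain of the series, to WR against the carbon source WB was read beside the mutant comparison. It rests on 3 libraries each that the mutant comparison does not use. Their estimated counts summed to 1782848 to 2417284 per WB library and 3372763 to 3414915 per WR library, fewer than in the mutant comparison. Of the genes listed in them, 0.16 to 0.3% had fractional counts, against 13.22 to 14.07% in the mutant comparison. The 2 sets may thus not have been counted alike, which was not tested, and FPKM levels are best compared within a set. The WR group of EU2101 is taken from its growth label, and its titles read WB_RS. Of the whole-count genes, 6378 were tested in both. Among the genes lower in MuPOX03016, 95 of 445 (21.3%) were higher on WR than on WB in EU2101 and 30 (6.74%) were lower, against 8.66% and 7.61% of all genes tested in EU2101. Among the genes higher in MuPOX03016, 84 of 654 (12.8%) were higher on WR and 69 (10.6%) were lower. The median log2 fold change of WR over WB was 0.30 for the 445 falls and -0.25 for the 654 rises, against -0.03 over all 6378 genes, so that the median of the rises lay below 0 although more of them were called higher on WR than lower. Among genes not called in the mutant, the shares were 6.76% and 7.27%. The 2 sets of fold changes had a Spearman rho of -0.14 across the 6378 genes, which are not independent replicates. These are counts, and no test of their overlap was made. Read from the side of the carbon source, the falls were 17.7% of the 536 genes higher on WR and 6.21% of the 483 genes lower on WR. Leaving out WB replicate 1 gave 163 and 62 genes higher and lower on WR among the falls, and 116 and 148 among the rises. The excess of WR-higher calls among the rises was thus reversed. It was also reversed with the replicate number as a block (108 and 151), and DESeq2 gave 95 and 92. With any other library left out, 59 to 67 and 12 to 16 genes among the falls were higher and lower on WR. Among the rises these were 53 to 67 and 25 to 31.

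The run POX09467 to POX09474 shows opposite directions in the 2 comparisons. All 8 genes fell in MuPOX03016, with log2 fold changes of -3.65 to -1.26, and all 8 had a positive log2 fold change on WR over WB in EU2101, of which 7 passed the test. POX09469 was its most abundant member in MuPOX03016 and MuKu70, though not in EU2101 on WR. It stood at 165.74, 280.47 and 173.23 FPKM in MuPOX03016, against 1135.43, 1024.77 and 1007.21 FPKM in MuKu70 (log2 fold change -2.22, SE 0.22, adjusted p = 0.00205). In EU2101 it stood at 284.90, 344.33 and 312.01 FPKM on WR, against 122.55, 10.27 and 12.32 FPKM on WB (log2 fold change 2.85, adjusted p = 0.0288). In the mutant comparison 7 or 8 of the 8 genes passed in each alternative. In EU2101 the number that passed was 8 without WB replicate 1, 3 with any other library of these 2 groups left out, 3 with only WR and WB in the fit and 4 in DESeq2. POX02284 moved in the same opposite way, with 71.21, 59.42 and 73.78 FPKM on WR and 0, 2.55 and 0 FPKM on WB (adjusted p = 0.000571). POX00499 differed, being lower in MuPOX03016 and also lower on WR than on WB (log2 fold change -1.89, adjusted p = 0.0381). All 6 genes of POX09356 to POX09361 also had a positive log2 fold change on WR over WB (median 0.54), and none passed; 3 passed without WB replicate 1 and 1 in DESeq2. In POX09335 to POX09340 the median was -0.3 and none was called higher on WR, with 1 called without WB replicate 1. Other genes moved alike in both comparisons. All 5 genes of the rising run POX03927 to POX03931 were also higher on WR (median 3.45). Of these 4 passed, and as few as 2 with 1 library left out. In POX06599 to POX06603, 3 of 5 were higher and passed (median 3.38). Of the 11 list members with whole counts, all but POX02740 (-1.34, adjusted p = 0.0856) were called higher on WR.

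**Figure D5:**
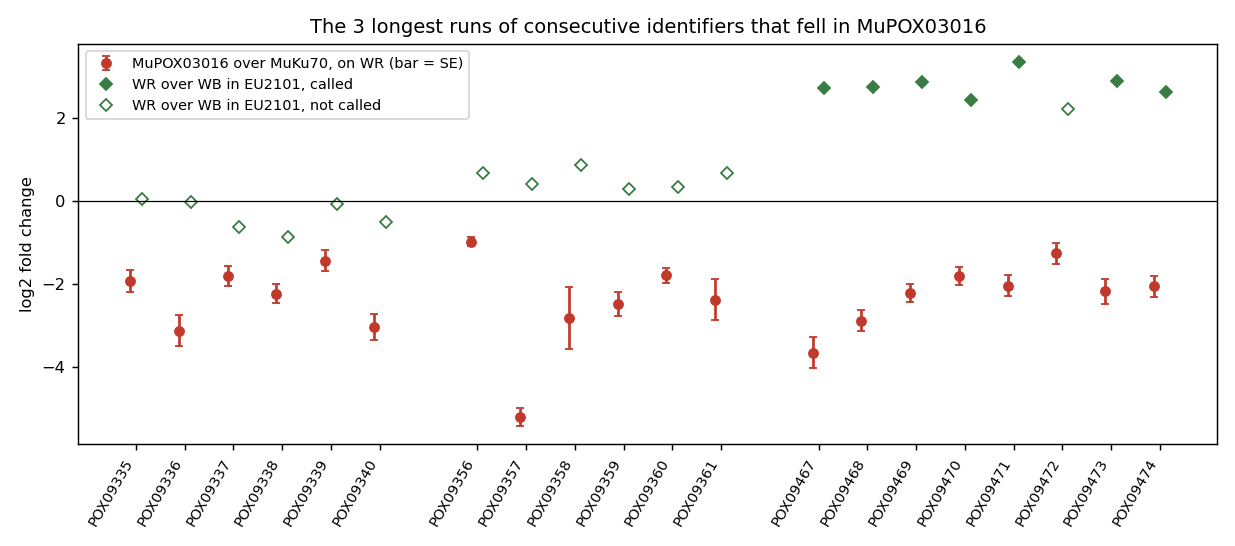
Log2 fold changes of the genes in the 3 longest falling runs, for MuPOX03016 over MuKu70 on WR (red, bars are the standard error) and for WR over WB in EU2101 (green diamonds, filled where called). The 8 genes POX09467 to POX09474 lie below 0 in the first comparison and above 0 in the second, and the 2 other runs lie within 1 of 0 in the second.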

How the data were processed

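Each file holds 1 library and lists, for each gene identifier, its expected count and its FPKM. The authors deposited each estimated count per gene without normalization, per the file headers and values, and a gene not listed in a library was taken as 0. The FPKM values are the authors' own, per the file headers. The submitters' processing notes list 4 programs, giving no role for any: BWA 0.7.10-r789; Bowtie2 2.1.0; RSEM 1.2.12; DESeq2. The genome build is not given in the sources used here.

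The estimated counts of the 6 mutant libraries were rounded and tested over all genes in edgeR 4.0.16 (R 4.3.3) by the quasi-likelihood F-test, with TMM scaling, filterByExpr at its minimum of 10 and Benjamini-Hochberg adjustment over 7931 genes (threshold 0.05). Whole-count genes were read from that table. A standard error is the log2 fold change divided by the root of F. WR against WB was fitted over the 9 EU2101 libraries. Replicates were distinct libraries, with chi-square values of 16.2 to 45.3 per degree of freedom. The script was tested on simulated data. DESeq2 1.42.0 and limma 3.58.1 gave alternatives.

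Genes were named by a rule: POX03016; in each direction, among called genes whose strains did not overlap and whose higher strain averaged at least 10 FPKM, the largest fold change and the highest mean FPKM; and the 13 listed identifiers. Members and lists were chosen with earlier results of these data known.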

Additional observations from a re-analysis of the deposited data

How the results depend on the processing

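Over the 65 named whole-count genes and their alternatives, 976 of 1100 values kept direction and side of the threshold, 117 lost the call, 7 gained it and 0 changed sign. The 976 include the values under the wider tolerance and with fractional genes included. These repeat the main fit of each gene and could not differ. POX03016 was lower and passed in each alternative, at -2.47 to -2.11 with 1 library left out. The list median lay between 1.08 and 1.42 with 1 library left out. Counts of calls rested on the libraries. With 1 library left out, called genes numbered 429 to 1012, higher 213 to 600, lower 216 to 412, at least 2-fold higher 116 to 241, at least 2-fold lower 149 to 219 and list members 2 to 8. By level the same counts were 2 to 8 under 1 FPKM, 50 to 108 from 1 to 10, 250 to 628 from 10 to 100, 119 to 248 from 100 to 1000 and 8 to 24 at 1000 and over. These fits have fewer samples. The 4-fold counts were 15 to 41 higher and 56 to 85 lower.

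Scaling by library totals called 456 genes higher and 957 lower, and limma on log2(FPKM + 1), log2(FPKM + 5) and log2(FPKM + 1) with no filter called 420 and 820, 421 and 823, and 409 and 780. Limma on log2(FPKM + 5) gave 112 genes at least 2-fold higher, and limma with no filter 4 list members. Under 1 FPKM, 15 genes were called by DESeq2, 13 with no count filter, 0 with the stricter filter and 5, 4 and 21 by the 3 limma fits, while classes by CPM put 0 there. The stricter filter left 67 calls from 1 to 10 FPKM. At 1000 FPKM and over DESeq2 called 38. Except where another scaling or filter is named, the cause was not tested.

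With the replicate number as a block, 1453 whole-count genes were called, 37 of them at 1000 FPKM and over; runs of 3 or more numbered 49, and POX00063, POX02740 and POX05587 passed. Same-numbered libraries deviated together at r of 0.07, 0.38 and 0.61 for numbers 1, 2 and 3, across 5666 genes. MuPOX03016 replicate 2 with MuKu70 replicate 3 gave -0.42, and MuPOX03016 replicate 3 with MuKu70 replicate 2 gave -0.51. MuKu70 replicate 1 correlated best with MuPOX03016 replicate 2 (0.08). No label ties the numbers, so the fit used in the text took no pairing, although numbers 2 and 3 varied together across the strains. In EU2101, with 1 library left out, the falls had 59 to 163 genes higher and 12 to 62 lower on WR, and the rises 53 to 116 and 25 to 148. The block gave 108 rises higher and 151 lower on WR, with 141 falls higher and 55 lower. A fit of WR and WB alone gave 83 rises higher and 44 lower on WR.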
